A study of Mus musculus with 9 samples.

Results

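The integrated stress response was followed through 10 genes in Hepa1-6 cells, a mouse hepatoma cell line, treated with a pleuromutilin antibiotic. The genes were Atf4, Atf3 and Atf5, which encode transcription factors, Ddit3, which encodes CHOP, Trib3, Chac1, Sesn2 and Ppp1r15a, which encode effectors and feedback proteins, and Gdf15 and Fgf21, which encode secreted signals. They were taken by gene symbol from the 21970 protein-coding genes in the deposited table of 56748 genes. The 10 symbols matched 11 gene identifiers, because Ddit3 has a second identifier that had 0 counts in every library and was not used. Enough reads for a test were found for 9 of them, among 14510 genes tested in all, but not for Fgf21.

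RNA-Seq compared 3 groups of 3 libraries. The control cells received no drug according to the sample labels and vehicle according to the study's methods. The other groups received 37 µg/mL lefamulin or 37 µg/mL tiamulin for 2 days. All groups grew in DMEM with fetal bovine serum and penicillin-streptomycin, so the control cells were also exposed to antibiotics. Lefamulin is used in people and tiamulin in animals. They share the mutilin core and differ in the side chain attached to it, and their doses were matched by mass. A single cell line was studied. The labels number the libraries of a group but do not say whether they came from separate cultures, so the p values measure the spread between these libraries, which may be technical.

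The stress response works through translation. Kinases that sense unfolded protein, amino acid shortage, haem shortage, mitochondrial faults or viral RNA phosphorylate the initiation factor eIF2, which slows most protein synthesis while favouring the translation of a few mRNAs, among them that of ATF4. ATF4 protein is therefore set largely by translation, and the amount of its mRNA is not a measure of its activity. ATF4 switches on genes for amino acid synthesis and uptake, tRNA charging and further regulators such as CHOP, ATF3 and TRIB3. The liver is a main source of circulating FGF21, and many stressed cells secrete GDF15.

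Total counts on genes were between 15568887 and 18008105 per library. Tiamulin 2 stood apart from the other libraries of its group, with a chi-square statistic per degree of freedom of 18.1 against tiamulin 1 and 20.7 against tiamulin 3, compared with 2.88 to 7.57 for the other pairs within a group. Its deviation from the group mean followed the GC content of the genes, with a Spearman's rho of 0.719 over 9173 genes (genes do not count as independent replicates). The rho was 0.537 in control 1, -0.523 in control 2, -0.577 in tiamulin 1 and -0.612 in tiamulin 3, and from -0.167 to 0.201 in the other libraries. Deviations are taken from the mean of the same 3 libraries, so the trend of tiamulin 2 pushes tiamulin 1 and tiamulin 3 the other way. The GC content of 8 of the 10 stress genes lies between the percentiles 77.1 and 98.5 of all genes, and tiamulin 2 gave the highest level of its group for all 9 tested stress genes. Control 1 did so among the controls. Values without tiamulin 2 are therefore given beside the counts of the stress genes and beside those of the other ATF4 targets against the controls. The hepatocyte origin of the cells showed in Alb, with 5596 to 9519 counts per library, and Afp, whereas Serpina1a was listed at 0 and Ttr, Apoa1 and Ahsg had at most 8 counts.

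The stress genes were higher under both drugs. Under lefamulin 8 of the 9 tested genes rose (adjusted p below the threshold in edgeR's quasi-likelihood test, Benjamini-Hochberg over all tested genes), where 7.09% of all tested genes did. Under tiamulin all 9 rose, where 9.08% of all tested genes did. The median log2(fold change) of the 9 genes was 0.95 under lefamulin and 0.92 under tiamulin, compared with -0.002 and 0.003 over all tested genes. In each of the 9 genes, every treated library lay above every control library under both drugs, which held for 18.9% of all tested genes under lefamulin and 17.1% under tiamulin. Of the 9 genes, 8 rose under both drugs, as did 4.46% of all tested genes. Both comparisons use the same 3 controls. Without tiamulin 2, 9 of 9 genes rose under each drug, while the share of all tested genes that rose went up to 12.2% under lefamulin and 11.7% under tiamulin.

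Ddit3, Atf3, Trib3 and Chac1 more than doubled under both drugs and met the study's definition of a differentially expressed gene (DEG), which asks for a log2(fold change) beyond 1 in size on top of an adjusted p value under 0.05. A share of 0.979% of all tested genes were raised DEGs under lefamulin and 1.05% under tiamulin. Ppp1r15a, Gdf15 and Sesn2 rose by smaller steps, and Atf4 rose least among the genes that passed under both drugs. Without tiamulin 2, the number of DEGs under tiamulin was 3, as the log2(fold change) of Atf3 was then 0.997.

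**Figure D1:**
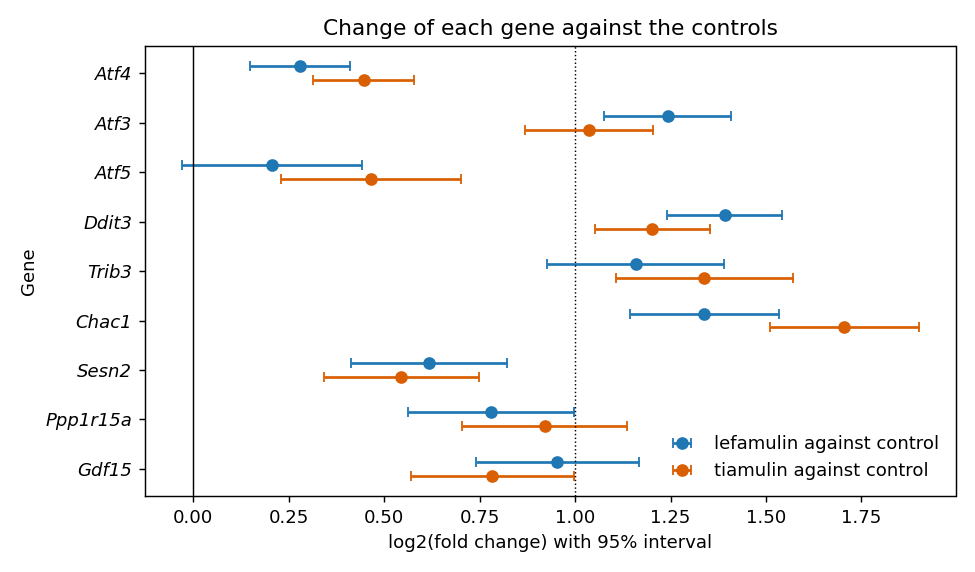
Log2(fold change) of the 9 tested genes against the controls (x axis) under lefamulin (blue) and tiamulin (orange), with 95% intervals from the edgeR fit; the dotted line marks 1. Every interval except that of Atf5 under lefamulin lies to the right of 0, and Chac1 under tiamulin has the highest value, 1.71.

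The promoters of all 10 genes, including Fgf21, for which no change could be measured, were searched for letters recognised by these factors. TGATGNAA is the core of the composite element that ATF4 binds together with a C/EBP partner, TGACGTCA is the cAMP response element bound by CREB and ATF dimers, and TGACGCAA is a variant of the latter. Each was sought on both strands in the RefSeq promoter windows of GRCm38.p6, which run from 250 bases before to 50 bases after a gene's start. All 10 genes had an entry, 12 windows in all because Atf5 and Gdf15 have more than one. TGATGNAA occurred in 4 of the 10 genes, Atf3, Trib3, Chac1 and Fgf21, and in 4.51% of the 27025 genes with a window. TGACGTCA occurred in Ppp1r15a and in 2.03% of genes, and TGACGCAA in Chac1 and in 0.562% of genes. The matches do not overlap one another. The windows that hold a match are shown 5′ to 3′ on the strand of the gene, with the matching letters in capitals, so that their positions can be compared between genes. The matches are a description of the letters and not evidence of binding.
Atf3, chr1:191183284-191183583, minus strand: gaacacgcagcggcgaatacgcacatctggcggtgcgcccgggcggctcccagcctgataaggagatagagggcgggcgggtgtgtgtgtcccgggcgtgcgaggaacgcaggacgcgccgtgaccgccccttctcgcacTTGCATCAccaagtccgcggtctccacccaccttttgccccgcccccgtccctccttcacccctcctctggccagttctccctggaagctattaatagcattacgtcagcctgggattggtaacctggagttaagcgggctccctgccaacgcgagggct
Trib3, chr2:152344011-152344310, minus strand: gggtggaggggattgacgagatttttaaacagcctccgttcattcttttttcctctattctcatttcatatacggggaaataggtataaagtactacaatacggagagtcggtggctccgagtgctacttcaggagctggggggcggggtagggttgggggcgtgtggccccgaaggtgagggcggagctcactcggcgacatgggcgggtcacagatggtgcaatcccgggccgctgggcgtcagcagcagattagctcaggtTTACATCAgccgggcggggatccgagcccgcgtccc
Chac1, chr2:119350992-119351291, plus strand: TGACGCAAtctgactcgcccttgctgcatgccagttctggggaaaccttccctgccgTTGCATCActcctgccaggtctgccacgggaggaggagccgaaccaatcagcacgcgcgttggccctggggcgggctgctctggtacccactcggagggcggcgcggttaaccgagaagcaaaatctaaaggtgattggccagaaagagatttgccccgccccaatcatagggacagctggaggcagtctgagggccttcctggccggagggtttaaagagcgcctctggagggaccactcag
Ppp1r15a, chr7:45526219-45526518, minus strand: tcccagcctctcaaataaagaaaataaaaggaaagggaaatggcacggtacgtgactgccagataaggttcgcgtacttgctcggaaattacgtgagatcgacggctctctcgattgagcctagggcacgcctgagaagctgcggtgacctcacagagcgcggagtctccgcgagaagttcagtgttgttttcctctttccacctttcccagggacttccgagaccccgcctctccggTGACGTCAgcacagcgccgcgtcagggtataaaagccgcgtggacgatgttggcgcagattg
Fgf21, chr7:45615441-45615740, minus strand: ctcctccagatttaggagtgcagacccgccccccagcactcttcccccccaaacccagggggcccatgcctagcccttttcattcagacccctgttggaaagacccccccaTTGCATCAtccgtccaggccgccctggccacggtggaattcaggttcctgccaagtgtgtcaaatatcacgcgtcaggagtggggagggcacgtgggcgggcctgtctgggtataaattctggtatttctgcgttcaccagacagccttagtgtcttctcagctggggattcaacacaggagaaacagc

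The TGATGNAA match began at base 141 of the window in Atf3, at base 58 in Chac1 and at base 112 in Fgf21, all before the gene's start, and at base 265 in Trib3, just after it. Chac1 carries a second match at the first base of its window. Of the 4 DEGs, Ddit3 had none of these letters in its window, and neither had Atf4, Atf5, Sesn2 or Gdf15.

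Levels per length, as the deposited FPKM, put Atf4 far above the others. In the controls Atf4 had 185 ± 5.15 FPKM (mean ± SD, n = 3) and Atf5 47.9 ± 4.93. Ppp1r15a (19.8), Ddit3 (18.6), Atf3 (17.1), Gdf15 (16.7) and Trib3 (16.5) followed with library ranges that overlapped between neighbours, and Sesn2 (11.6) and Chac1 (11.6) came last with overlapping ranges. Under lefamulin Ddit3 moved to the third place with 48.8 ± 1.03 FPKM, above Atf3 with 40.5 ± 1.53, and the ranges of these neighbours did not overlap. Under tiamulin Ddit3 (42.8), Trib3 (41.9), Chac1 (37.8), Ppp1r15a (37.4) and Atf3 (35.2) overlapped from each to the next. Sesn2 was lowest under both drugs, at 17.8 and 17.0 FPKM, and Chac1, whose range overlapped with that of Sesn2 in the controls, lay above it.

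**Figure D2:**
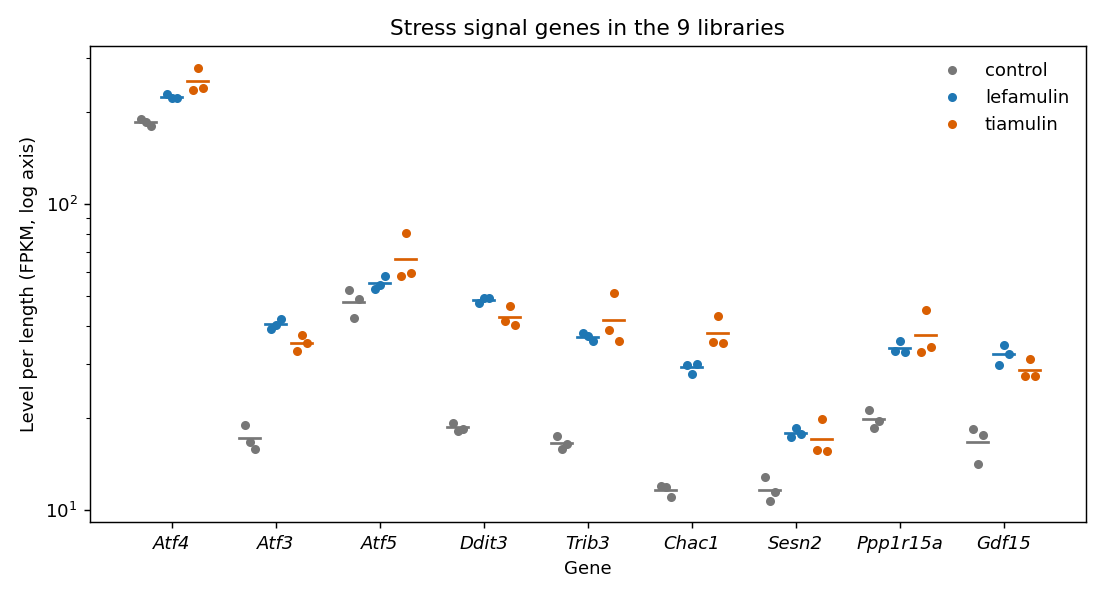
FPKM on a log axis (y) of the 9 tested genes (x) in the control (grey), lefamulin (blue) and tiamulin (orange) libraries; points are libraries and bars are group means of 3. Atf4 lies highest in every group, and the treated points lie above the control points for each gene.

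Atf4 and Atf5 had the smallest changes of the 9 genes against the controls. Atf4 (ENSMUSG00000042406, chromosome 15, 80139385 to 80141742; positions as deposited, their build not settled) had 451, 439 and 428 CPM (counts scaled to the TMM-normalized library total) in controls 1 to 3. It had 545, 528 and 527 CPM in the lefamulin libraries and 563, 660 and 572 CPM in the tiamulin libraries. The 3 groups did not overlap, although tiamulin 2 was well above the other libraries of its group. In the fit Atf4 rose by 0.28 ± 0.061 (SE) on the log2 scale under lefamulin (adjusted p = 0.00801) and 0.45 ± 0.061 under tiamulin (adjusted p = 0.000196). Without control 3 the lefamulin value was 0.26 and its adjusted p was 0.0564, while without tiamulin 2 the tiamulin value was 0.37.

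Atf5 (ENSMUSG00000038539, chromosome 7, 44461680 to 44466082), an ATF4 relative that is also controlled by translation and is linked to the mitochondrial stress response, had 105, 85.1 and 98.0 CPM in the controls. Its lefamulin libraries had 106, 109 and 116 CPM, barely above the highest control, and its tiamulin libraries 117, 161 and 120. The tiamulin mean was carried in part by tiamulin 2. The log2(fold change) under lefamulin, 0.205 ± 0.11, did not pass (adjusted p = 0.252), and its 95% interval ran from -0.031 to 0.44. Under tiamulin Atf5 rose by 0.465 ± 0.109 on the log2 scale (adjusted p = 0.0101), or by 0.30 without tiamulin 2 (adjusted p = 0.0014), and without control 2 the adjusted p was 0.0526. Without tiamulin 2 the spread of the fit was smaller, and the lefamulin value of 0.20 passed with an adjusted p of 0.0142. With GC offsets, which remove each library's trend on GC content, it was 0.29 with an adjusted p of 0.000103. Without control 2 it was 0.13 with an adjusted p of 0.563. Reads of Atf5 cannot be separated from its neighbour Nup62 where 571 bases of both genes overlap on opposite strands, as the sources used here do not say whether strand was used in counting. Over all libraries Nup62 had 15471 counts and Atf5 16925. Ddit3, with 9393 counts, overlaps Mars1, with 26868, in the same way by 68 bases, and Ppp1r15a overlaps Tulp2, which had 137 counts over all libraries, by 717 bases.

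Atf3 (ENSMUSG00000026628, chromosome 1, 190902493 to 190950236), a stress-induced factor that can repress its own gene and others, had 41.1, 35.97 and 34.3 CPM in the controls. The lefamulin libraries had 84.9, 87.1 and 91.3 CPM and the tiamulin libraries 71.7, 80.2 and 76.5. Each treated library was therefore far above each control, and every lefamulin library was above every tiamulin library. Atf3 rose by 1.24 ± 0.078 on the log2 scale under lefamulin (adjusted p = 1.93e-07) and 1.04 ± 0.078 under tiamulin (adjusted p = 1.02e-06).

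Ddit3 (ENSMUSG00000025408, chromosome 10, 127126643 to 127132157) encodes CHOP, a C/EBP family factor that ATF4 induces and that is known for promoting cell death when stress persists. It had 33.2, 31.0 and 31.8 CPM in the controls, 82.0, 85.0 and 85.1 CPM with lefamulin and 71.8, 79.5 and 69.6 CPM with tiamulin. The replicates lay close together and the groups did not overlap. Under lefamulin Ddit3 rose by 1.39 ± 0.07 on the log2 scale (adjusted p = 2.5e-08), with the fifth lowest p of all tested genes in that comparison. Under tiamulin the value was 1.202 ± 0.07 (adjusted p = 7.94e-08). Among the stress genes Ddit3 is the only one with a GC content below the median of genes, and its tiamulin value without tiamulin 2 was 1.14.

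**Figure D3:**
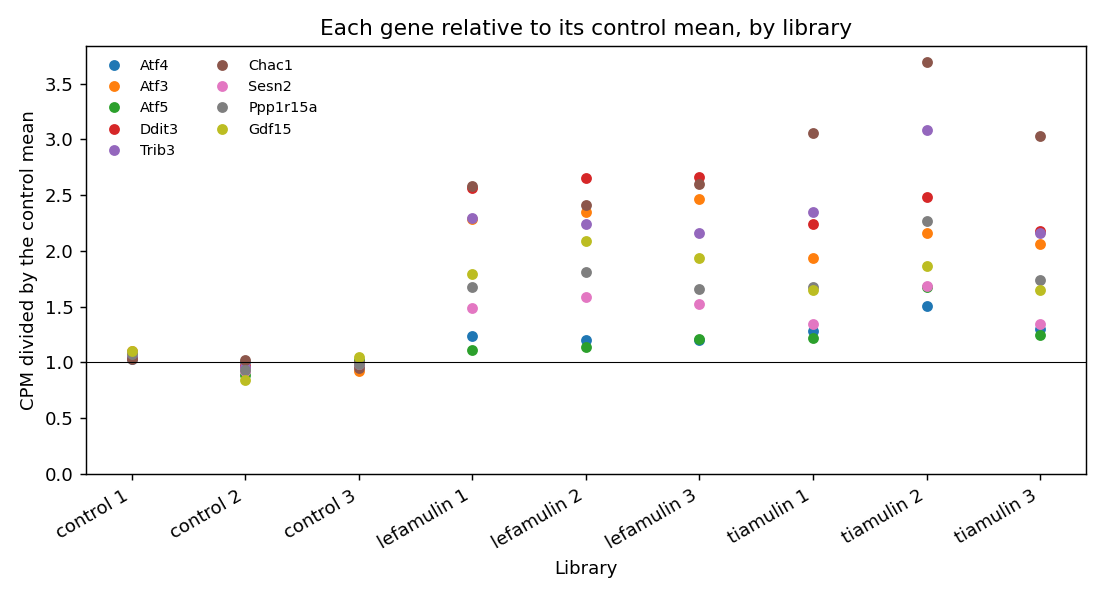
CPM of each tested gene divided by its control mean (y, from 0) in each of the 9 libraries (x), one colour per gene; the line marks 1. Tiamulin 2 gives the highest point of its group for all 9 genes, and Atf5 and Atf4 stay nearest to 1 under both drugs.

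Among the effectors, Chac1 showed the largest rise under tiamulin. Chac1 (ENSMUSG00000027313, chromosome 2, 119181710 to 119184862) encodes an enzyme that breaks down glutathione, and its mRNA is a widely used readout of ATF4 and CHOP activity. Controls 1 to 3 had 19.6, 19.4 and 18.1 CPM, against 49.2, 45.9 and 49.5 CPM with lefamulin and 58.2, 70.4 and 57.8 CPM with tiamulin, and no pair of groups overlapped. On the log2 scale Chac1 rose by 1.34 ± 0.091 under lefamulin (adjusted p = 4.15e-07) and 1.71 ± 0.091 under tiamulin (adjusted p = 3.28e-08).

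Trib3 (ENSMUSG00000032715, chromosome 2, 152179342 to 152185952) encodes a pseudokinase that binds AKT and, in a feedback, ATF4 itself. Its CPM was 37.2, 33.8 and 35.0 in the controls, 81.0, 79.2 and 76.3 with lefamulin and 83.1, 109 and 76.2 with tiamulin. The lefamulin libraries agreed closely, while tiamulin 2 was high and tiamulin 3 was level with the lowest lefamulin library. The log2(fold change) was 1.16 ± 0.108 (adjusted p = 8.03e-06) and 1.34 ± 0.108 (adjusted p = 1.65e-06), and the tiamulin value was 1.17 without tiamulin 2.

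Ppp1r15a (ENSMUSG00000040435, chromosome 7, 45172340 to 45175692) encodes GADD34, which directs a phosphatase to eIF2 and so ends the response. Its CPM was 62.8, 54.5 and 57.6 in the controls, 97.8, 105 and 96.9 with lefamulin and 97.6, 132 and 101 with tiamulin. Apart from tiamulin 2, the libraries of both drugs lay within a narrow band. The rise was 0.78 ± 0.101 on the log2 scale under lefamulin (adjusted p = 0.000156) and 0.92 ± 0.101 under tiamulin (adjusted p = 2.76e-05), the latter 0.77 without tiamulin 2. Ppp1r15b, the constitutive paralog with the same role, had values of 0.07 and 0.03 that did not pass.

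Sesn2 (ENSMUSG00000028893, chromosome 4, 132219343 to 132237812) encodes a leucine sensor that restrains mTORC1. Its CPM was 44.6, 37.4 and 39.99 in the controls, 60.6, 64.6 and 61.9 with lefamulin and 54.8, 68.6 and 54.6 with tiamulin. The tiamulin libraries other than tiamulin 2 were below all lefamulin libraries. Sesn2 rose by 0.62 ± 0.095 (adjusted p = 0.00063) and 0.545 ± 0.095 (adjusted p = 0.00121).

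Of the secreted signals, Gdf15 rose and Fgf21 was near the limit of detection. Gdf15 (ENSMUSG00000038508, chromosome 8, 71082043 to 71085106), a cytokine of stressed cells that acts on the brainstem to lower appetite, had 34.2, 26.3 and 32.7 CPM in the controls. It had 55.6, 64.7 and 60.0 CPM under lefamulin and 51.3, 57.8 and 51.2 under tiamulin. The controls had the widest relative spread of the tested stress genes, 13.6% of their mean, and still lay well below every treated library. The log2(fold change) was 0.95 ± 0.1 under lefamulin (adjusted p = 2.4e-05) and 0.78 ± 0.1 under tiamulin (adjusted p = 0.000103). Fgf21 (ENSMUSG00000030827, chromosome 7, 45263310 to 45264914) had 0 counts in 8 libraries and 5 counts, 0.306 CPM, in lefamulin 3. A count of 0 allows up to 3 counts, or 0.168 to 0.192 CPM in these libraries, so a change in Fgf21 was not detectable at this depth; this limit covers counting error only.

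Tiamulin was then compared with lefamulin itself, at the same dose by mass and the same time. Chac1 was the only one of the 9 genes to pass, higher under tiamulin by 0.37 on the log2 scale (95% interval 0.18 to 0.55, adjusted p = 0.0258), where 2.85% of all tested genes were higher under tiamulin. Its tiamulin libraries were 3 of 3 above all lefamulin libraries. This call did not survive the loss of any lefamulin library, with adjusted p values of 0.0916, 0.128 and 0.0917 without lefamulin 1, 2 and 3. The difference was 0.27 without tiamulin 2 (adjusted p = 0.0188).

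For the other 8 genes the test did not separate the drugs, and 4 of the 9 genes had a lower value under tiamulin. Atf3 and Ddit3 were lower under tiamulin in all libraries, with differences of -0.21 (95% interval -0.37 to -0.045, adjusted p = 0.132) and -0.19 (-0.34 to -0.047, adjusted p = 0.118). Libraries lay wholly below in 12.9% of all tested genes and wholly above in 13.6%. Atf4 and Atf5 lay wholly above, with differences of 0.17 (0.035 to 0.30, adjusted p = 0.136) and 0.26 (0.025 to 0.495, adjusted p = 0.187). The remaining genes had overlapping libraries. Their 95% intervals were -0.042 to 0.40 for Trib3, -0.071 to 0.35 for Ppp1r15a, -0.27 to 0.13 for Sesn2 and -0.38 to 0.038 for Gdf15, and these libraries do not separate values within those intervals.

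These differences depended on tiamulin 2. Without it 3 genes passed, while the share of all tested genes that differed between the drugs went from 4.9% to 8.79%. These were Chac1, which was higher under tiamulin, and Atf3 and Ddit3, which were lower, with differences of -0.245 (adjusted p = 0.0246) and -0.25 (adjusted p = 0.0108). The difference of Ppp1r15a went from 0.14 to -0.009, that of Trib3 from 0.18 to 0.015, that of Atf5 from 0.26 to 0.098 and that of Atf4 from 0.17 to 0.09. With GC offsets on all 9 libraries 4 genes passed, where 13.2% of all tested genes did. Chac1 was higher by 0.28, and Atf3, Sesn2 and Gdf15 had differences of -0.24, -0.18 and -0.30. The sign of the difference was positive for Chac1, Atf4, Atf5 and Trib3 and negative for Atf3, Ddit3, Sesn2 and Gdf15 in each of these fits.

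**Figure D4:**
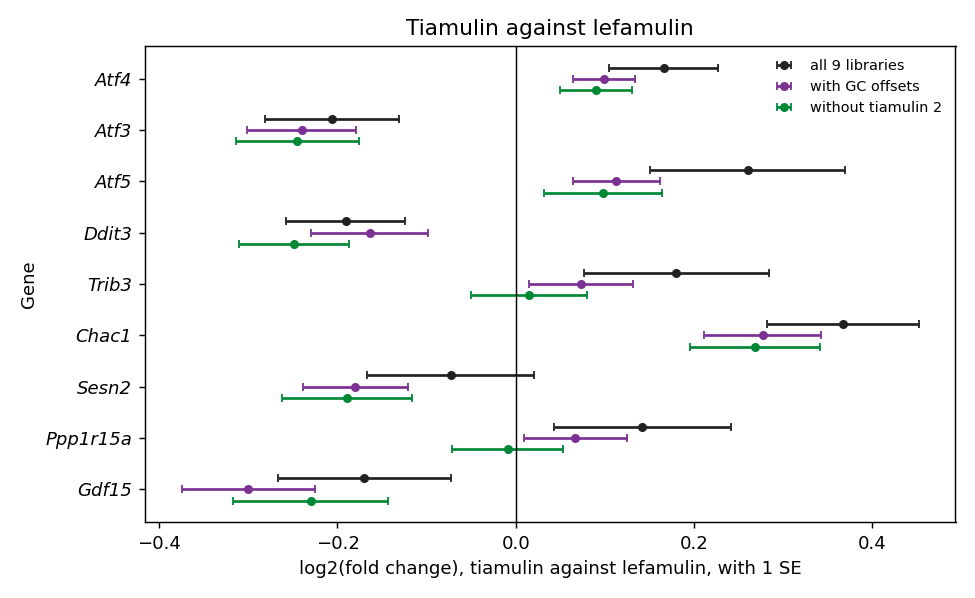
Log2(fold change) of tiamulin against lefamulin (x) for the 9 tested genes, with 1 SE, from the fit of all 9 libraries (black), with GC offsets (purple) and without tiamulin 2 (green). Values right of 0 are higher under tiamulin; Chac1 lies to the right and Atf3, Ddit3 and Gdf15 to the left in all fits, while Ppp1r15a moves from 0.14 to -0.009.

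Other genes that ATF4 is known to control were examined next. Of 38 tested genes of amino acid synthesis and transport, tRNA charging and regulation, 29 rose under lefamulin and 36 under tiamulin, and none fell, where 7.09% and 9.08% of all tested genes rose. All 29 rose under both drugs, as did 4.46% of all tested genes, and both comparisons use the same 3 controls. The median log2(fold change) was 0.36 and 0.44. Without tiamulin 2, 37 and 37 of 39 tested passed in either direction, in a fit where 24.9% and 23.1% of all tested genes did. Cth, which makes cysteine from cystathionine, rose by 1.34 and 1.73 on the log2 scale. Aldh1l2, a mitochondrial folate enzyme, rose by 1.07 and 1.52, Psph, the last enzyme of serine synthesis, by 0.99 and 1.09, Pycr1, an enzyme of proline synthesis, by 0.59 and 1.26, and Gpt2, a mitochondrial alanine transaminase, by 0.56 and 0.94. Directly compared, 8 of the 38 were higher under tiamulin and none lower, where 2.85% and 2.05% of all tested genes were. Among them were Pycr1 (0.67, adjusted p = 0.00276), Aldh1l2 (0.44, adjusted p = 0.00149), Cth (0.39, adjusted p = 0.00502) and Gpt2 (0.38, adjusted p = 0.00868). The 2 genes that did not pass under either drug were Ddit4, with 0.20 and 0.225, and Cebpb, with -0.22 and 0.09, the latter named after their values were seen.

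The sensors and regulators of eIF2 act upstream of ATF4. Of 17 tested genes, 2 rose under lefamulin and 3 rose and 1 fell under tiamulin. Genes that rose made up 7.09% of all tested genes under lefamulin and 9.08% under tiamulin, and those that fell 6.00% and 7.34%, so these counts are near the background. Eif2s2, the beta subunit of eIF2, rose under both by 0.28 and 0.20, and Eif2b2, a subunit of its exchange factor, rose by 0.26 under tiamulin. Eif2ak2, the kinase PKR, fell by 0.26 under tiamulin and was lower than under lefamulin by 0.35 (adjusted p = 0.00953). Impact, an inhibitor of the kinase GCN2, rose by 0.27 under lefamulin and had -0.03 under tiamulin, a difference that passed (adjusted p = 0.0372).

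Of 7 tested genes linked to CHOP in cell death, 2 rose and 1 fell under each drug. Over all tested genes, 7.09% rose and 6.00% fell under lefamulin and 9.08% rose and 7.34% fell under tiamulin, so with a list this short nothing is read from the counts. Gadd45a, a growth arrest gene induced by several stresses, rose by 0.93 and 1.35 and was higher under tiamulin than under lefamulin (0.42, adjusted p = 0.0279). Pmaip1, which encodes the BH3 protein NOXA, rose by 0.36 under lefamulin, and its tiamulin value of 0.25 did not pass. Bbc3, which encodes PUMA, rose by 0.64 under tiamulin and had 0.07 under lefamulin, with a direct difference of 0.57 that did not pass (adjusted p = 0.0526). Bcl2l11, which encodes the death protein BIM, fell by 0.24 and 0.32.

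The endoplasmic reticulum has its own unfolded protein response, with chaperones as its main products. Of 22 tested genes of the unfolded protein response, 9 rose under lefamulin, whereas 6 rose and 3 fell under tiamulin, against shares of all tested genes of 7.09% raised under lefamulin and 9.08% raised and 7.34% lowered under tiamulin. Hspa5, the chaperone BiP, rose by 0.67 and 0.33 and was lower under tiamulin than under lefamulin (-0.33, adjusted p = 0.00133). Sdf2l1, a partner of BiP, rose by 0.67 and 0.48, and Sel1l, a part of the degradation machinery, by 0.30 and 0.45. Ern1, the sensor IRE1, rose by 0.435 under tiamulin and had 0.03 under lefamulin, a difference that passed (0.40, adjusted p = 0.000778). Directly compared, 3 of the 22 genes were lower under tiamulin and 1 was higher, where 2.05% and 2.85% of all tested genes were. The mitochondrial chaperones and proteases, which a mitochondrial unfolded protein response would involve, had 0 raised and 1 lowered of 12 under lefamulin and 1 raised and 1 lowered under tiamulin, near the same shares of all tested genes. Hspd1 fell by 0.29 and Hspa9 rose by 0.18 under tiamulin, and Trap1 fell by 0.20 under lefamulin, while Hspe1 had -0.045 and -0.29 and did not pass.

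**Figure D5:**
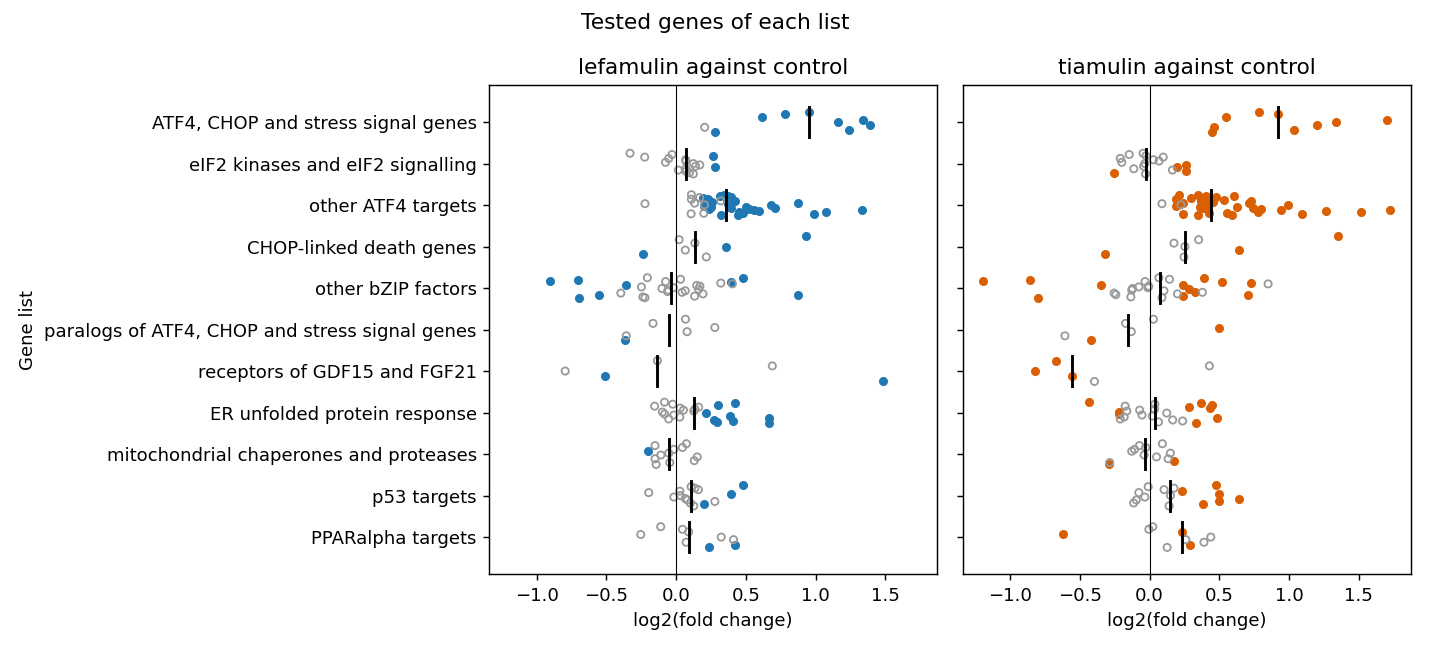
Log2(fold change) against the controls (x) of the tested genes of each list (rows) under lefamulin (left) and tiamulin (right). Filled points passed the test, open points did not, and black bars are medians, which are 0.95 and 0.92 for the stress genes and 0.36 and 0.44 for the other ATF4 targets.

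Of 6 tested paralogs of the stress genes, none rose and 1 fell under lefamulin and 1 rose and 1 fell under tiamulin, near the shares of all tested genes that rose (7.09% and 9.08%) and fell (6.00% and 7.34%). Trib1, a paralog of Trib3, fell by 0.37 and 0.42, and Trib2 had -0.36 and -0.61, which did not pass. Sesn1, a paralog of Sesn2 that p53 controls, rose by 0.50 under tiamulin and had 0.28 under lefamulin. Sesn3 had -0.165 and -0.17, Chac2 had 0.08 and -0.13, and Ppp1r15b is given above. Fgf15 had at most 1 count in any library and was not tested.

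Among other factors with a basic leucine zipper, 3 of 28 rose and 5 fell under lefamulin and 8 rose and 4 fell under tiamulin. Over all tested genes the shares were 7.09% and 6.00% under lefamulin and 9.08% and 7.34% under tiamulin. Maf fell by 0.91 and 1.19. Mafk, a small MAF protein, rose by 0.48 and 0.39, and Nfe2l1, which drives proteasome genes, by 0.39 and 0.52.

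The receptors for the secreted signals were looked at in full. Of 5 tested, 1 rose and 1 fell under lefamulin and 3 fell under tiamulin, where 7.09% of all tested genes rose under lefamulin and 6.00% and 7.34% fell. Gfral and Ret, the receptor and co-receptor of GDF15, had at most 3 counts in any library and were not tested. Klb, the co-receptor of FGF21, was covered by 7, 5 and 9 reads in controls 1 to 3, by 18, 17 and 20 with lefamulin and by 6, 1 and 8 with tiamulin. It passed under lefamulin (1.48, adjusted p = 0.0499) and between the drugs (-1.88, adjusted p = 0.0441), on counts as low as these. Fgfr1 fell by 0.51 and 0.56, Fgfr4 fell by 0.67 under tiamulin, with -0.13 under lefamulin, and differed between the drugs (-0.535, adjusted p = 0.022). Fgfr2 fell by 0.82 under tiamulin, with -0.795 under lefamulin, which did not pass, and Fgfr3 had 0.69 and 0.43 on at most 33 counts.

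Gdf15 and Sesn2 are also controlled by p53, and Fgf21 by PPARalpha. Of 15 tested p53 targets 3 rose under lefamulin and 6 under tiamulin, and none fell, where 7.09% and 9.08% of all tested genes rose. Mdm2, the ligase that degrades p53, rose by 0.20 and 0.38, and Trp53inp1 rose by 0.39 and 0.495. Of 9 tested PPARalpha targets 2 rose under each drug and 1 fell under tiamulin, with the same shares over all tested genes. Cpt1a rose by 0.24 under lefamulin, Plin2 rose by 0.23 and Vnn1 fell by 0.62 under tiamulin.

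Markers of other cell types were followed in the same libraries. Of 9 blood cell markers 5 were tested, and Cd68 and Ptprc rose and Csf1r fell under both drugs, while Adgre1, Cd3e and Hbb-bs had no count. For these and the next markers, 7.09% of all tested genes rose and 6.00% fell under lefamulin, and 9.08% rose and 7.34% fell under tiamulin. Ptprc rested on 5, 0 and 3 counts in the controls and 9 to 16 in the treated libraries. The summed level of the blood cell markers was 12.2 to 12.4 CPM in the controls, 13.2 to 19.5 under lefamulin and 17.0 to 22.7 under tiamulin. Cd68 made up most of it, with means of 8.35, 13.1 and 17.0 CPM. Of 5 endothelial markers 2 were tested, Pecam1 rose under both drugs and Vwf under lefamulin, and the sums were 2.33 to 2.85, 6.45 to 7.23 and 4.89 to 6.81 CPM. These calls rest on low counts, 15 to 67 per library for Pecam1 and 15 to 76 for Vwf. The fibroblast markers summed to 1508 to 1594, 1148 to 1201 and 1063 to 1156 CPM, nearly all of it Dcn, which fell by 0.42 and 0.49. Of the 3 tested, Pdgfra fell by 0.46 under lefamulin, had 0.14 under tiamulin and differed between the drugs (0.60, adjusted p = 0.00323), while Col1a1 had 0.79 and 0.43 and did not pass. The hepatocyte markers summed to 2532 to 2743, 2455 to 2579 and 1965 to 2106 CPM. Of 7 tested, 1 rose and 2 fell under lefamulin and 4 fell under tiamulin, where 7.09% of all tested genes rose and 6.00% fell under lefamulin and 7.34% fell under tiamulin. Alb fell by 0.24 and 0.50 and Afp by 0.81 under tiamulin, and the marker that rose was Trf, by 0.27 under lefamulin, named after its value was seen. Fewer cells of a type and less RNA per cell cannot be told apart in such bulk samples, and the part of these markers in the changes of the stress genes was not tested.

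Across the 9 libraries, the genes whose log2 CPM was most like that of Atf4 among 9201 genes with a mean of at least 10 CPM included Sars (Pearson's r = 0.995), Eif4ebp1 (0.995), Kctd13 (0.991) and Tmem63b (0.989). Sars, the cytosolic seryl-tRNA synthetase, and Eif4ebp1, a repressor of translation, are themselves on the list of ATF4 targets. The genes most like Ddit3 included Gm2a (0.995), Krt20 (0.994), Atf3 (0.994) and Sprr1b (0.991). Atf4 and Ddit3 had an r of 0.849 with each other. With Atf4, the closest stress genes were Ppp1r15a (0.962), Chac1 (0.961) and Trib3 (0.957). With Ddit3 they were Atf3, Gdf15 (0.975) and Trib3 (0.961). The libraries form 3 groups and share their GC trends, so these values describe the libraries only.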

How the data were processed

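The authors deposited whole-number read counts per gene and FPKM values for 9 RNA-Seq libraries of Hepa1-6 cells, 3 per group. The submitters' processing notes list CASAVA 1.8, fastp, HISAT2 2.0.5, featureCounts 1.5.0-p3, DESeq2 1.20.0 and mm10, with no roles. The deposited positions match GRCm38 for 1487 of 52088 nuclear genes (2.855%) and for none of the 10 genes, so they are printed as deposited, their build being unsettled, and are not comparable with the promoter windows. The FPKM values equalled counts over length and a library total to within 5.91e-06%. Counting on strand is not given in the sources used here.

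TMM scaling and edgeR's quasi-likelihood test (version 4.0.16, R 4.3.3) were applied to the counts (filterByExpr, robust quasi-likelihood fit of the 9 libraries, group only). A gene rose, fell or passed at an adjusted p value below 0.05 (Benjamini-Hochberg over 14510 genes). The procedure was tested on simulated data. Genes named are the 10 stress genes, up to 4 genes with the smallest p of each other list plus its DEGs, all paralogs and receptors, and the 5 genes most like Atf4 and Ddit3. Some items that this rule covers are not reported here. GC content came from GENCODE M21. Alternatives were DESeq2 1.42.0, its size factors, other filters, the compared groups alone, limma 3.58.1 on log2(FPKM + 1) and log2(FPKM + 0.1) for genes over 1 FPKM in at least 3 libraries, GC offsets, the replicate number as a block, and leaving out each library. The genes and lists were chosen with earlier results of these data known.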

Additional observations from a re-analysis of the deposited data

Results flagged for a closer look

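Chac1 differed between the drugs in the direct test. Its CPM was 45.9 to 49.5 under lefamulin and 57.8 to 70.4 under tiamulin, a log2(fold change) of 0.367 in favour of tiamulin (edgeR, adjusted p = 0.0258), with 3 of 3 tiamulin libraries above all lefamulin libraries. The estimate stayed between 0.268 and 0.418 in every fit that was run, and the adjusted p value lay between 0.00176 and 0.128.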

How the results depend on the processing

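The rises against the controls kept their direction in every setting run. The number of the 9 genes raised was 8 to 9 under lefamulin and 9 under tiamulin in the other settings, and 7 to 9 and 8 to 9 with each library left out. DESeq2 and the fit with no filter tested Fgf21 too. The share of all tested genes that rose was 3.35% to 12.4% and 4.41% to 12.7% in the other settings. With each library left out it was 3.73% to 12.2% and 5.6% to 11.7%. The 4 DEGs became 4 to 5 under lefamulin and 3 to 5 under tiamulin. Among all tested genes, between 12318 and 30014 by setting, 53 to 295 and 59 to 321 were DEGs of either direction. The 29 and 36 ATF4 targets that passed became 23 to 37 and 31 to 37, counted in either direction. Over the same settings 6.4% to 24.9% and 8.03% to 25.2% of all tested genes passed.

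The comparison of the drugs was the least stable. Against 1 gene in the fit reported, 2 passed with no filter on low counts (Atf5 as well as Chac1, Fgf21 being tested too), 0 with the compared groups alone, 0 with limma and a pseudocount of 1 or 0.1 FPKM, 4 with GC offsets and 3 with GC offsets and the block. Of all tested genes 4.9% passed in the fit reported, 4.23% with no filter, 1.99% with the groups alone and 3.6% with limma. The share was 13.2% with GC offsets and 10.7% with GC offsets and the block. Leaving out libraries gave 0 to 3, 0 without any of the lefamulin libraries and 3 without tiamulin 2, and moved the difference of Ppp1r15a between -0.009 (without tiamulin 2) and 0.224. With libraries left out, 1.37% to 8.79% of all tested genes passed.

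With the replicate number as a block, 8 and 9 genes rose under lefamulin and tiamulin and 0 passed between the drugs, where the difference of Chac1 was 0.363 with an adjusted p of 0.0731. In that fit 4.93% and 7.04% of all tested genes rose, and 1.81% passed between the drugs. Deviations of same-numbered libraries correlated by -0.529 to 0.063. These deviations also carry the GC trends of the libraries, so the values cannot decide whether the numbers pair the samples.

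Fgf21, Gfral, Ret and Fgf15 had too few counts for the filter of the fit reported. The causes of these shifts were not tested.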
